A study of Mus musculus with 26 samples.

Results

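Retnlb, Reg3b, Reg3g, Reg4, Ang4, Lypd8, Nos2, Duox2 and Duoxa2 are 9 genes of mucosal antimicrobial defence, described here in mouse colon. They were chosen by name, on the strength of differences already seen in these same samples, chiefly the difference between the diets at day 22, out of 35975 genes with summed counts and 17063 genes that passed the filter on low counts. All 9 members passed that filter. Because the day 22 difference between the diets selected them, it is given below as values with no test, as are the differences of the GW3965 day 22 samples from untreated colon for all 9 members and that of the standard day 22 samples for Retnlb. The standard day 22 samples are part of that difference too, so their tests against untreated colon for the other members are description only. A further 92 genes of the same pathways were listed for comparison, and 77 of them passed the filter. They too were listed with earlier results of these data known.

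The colon keeps its bacteria at a distance with a mucus layer and with proteins that epithelial cells secrete into it. Goblet cells, Paneth cells (normally a cell of the small intestine) and absorptive cells make these proteins, and cytokines such as interleukin-22, interleukin-17 and the type 2 cytokines are known to induce many of them. Retnlb encodes a resistin-like protein of goblet cells that acts on bacteria, Reg3b, Reg3g and Reg4 encode secreted C-type lectins of the Reg family, Ang4 encodes an RNase of the angiogenin family with antimicrobial activity, and Lypd8 encodes a protein of the colonocyte surface that binds flagellated bacteria. Nos2 encodes the inducible nitric oxide synthase, Duox2 an oxidase that releases hydrogen peroxide, and Duoxa2 the factor that Duox2 needs to mature and reach the cell surface.

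The 26 samples were polyA RNA-seq libraries of colon from wild-type C57BL/6J male mice of about 10 weeks of age at the start, bought from Taconic and fed a standard diet or a diet with GW3965, a synthetic agonist of the liver X receptor (LXR), a nuclear receptor for oxysterols. Treated mice received azoxymethane (AOM, a carcinogen that acts on the colon) at 10 mg per kg and then dextran sodium sulfate (DSS, which injures the colon epithelium) in the drinking water in cycles of 7 days, 3 in all over the full course, and were sampled at day 22, 43 or 70, the earlier days before the course was complete, with 3 samples for each diet and day. Untreated mice received neither agent and gave 4 samples for each diet, 2 after 22 and 2 after 43 days of diet. The day 70 samples thus came from older mice with more days of diet than any untreated sample. The study's own notes describe bulk libraries as pools of several animals, so a sample may not be 1 mouse, and p-values measure the spread between samples. One cage held all standard-diet mice of days 22 and 43, a second cage all GW3965 mice of those days, and the untreated mice of each diet had 1 cage, so that diet and cage cannot be told apart before day 70. At day 70 each sample had a cage of its own. No cage held both treated and untreated mice, so AOM-DSS and cage cannot be told apart in any difference from untreated colon. One untreated library that its title places on GW3965 carries a standard-diet label. It was placed by its title, and the LXR target Abca1 lay between 91.2 and 288 CPM (read counts scaled to library size, with TMM factors) in the 13 GW3965 samples and between 18.5 and 45.1 in the 13 standard ones, with no overlap, as was the case for Abcg1 (71.4 to 179 against 7.38 to 26.8) and Srebf1 (259 to 611 against 68.8 to 181).

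Total counts per sample ranged from 18195345 to 41522204. RNA integrity numbers were 9.1 or higher except at day 43, where they lay between 6.8 and 9.3 in 5 samples, and the remaining one (standard diet, day 43, replicate 1) had a value of 2.6 together with the largest total. Ribosomal protein genes took between 14.4% and 18.6% of the counts in the standard day 43 samples against 5.34% to 6.45% in untreated standard samples, and this percentage was a term of the fit, so that the day 43 differences from untreated colon have wide errors. The 8 markers of colon epithelium summed to between 2825 and 19100 CPM, and none of them was at 0 throughout a group. Marker genes of other tissues stood out at day 70: in GW3965 day 70 replicate 1, 8 markers of stratified squamous epithelium summed to 25030 CPM and 8 of skeletal muscle to 22450 CPM. In bulk tissue, fewer cells of a type and less RNA per cell cannot be told apart. The study took tissue for RNA from distal colon, matching the tumour areas. It reports no macroscopic tumours at day 22 and tumours almost only on the standard diet at day 43. At day 70 both diets had tumours, though not to the same extent. The part of tumour tissue in the differences below was not tested.

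The members lie on 6 chromosomes (GRCm38, GENCODE M21 annotation). Retnlb is at chr16:48816856-48818892 on the plus strand, Ang4 at chr14:51763878-51773590 on the minus strand and Reg4 at chr3:98222156-98236748 on the plus strand. Lypd8 (chr11:58379043-58390728) and Nos2 (chr11:78920787-78960254) share chromosome 11, both on the plus strand. Reg3b (chr6:78370657-78373466, plus) and Reg3g (chr6:78466269-78468872, minus) are neighbours on chromosome 6, with 92802 bases between them. Duox2 (chr2:122279247-122298449, minus) and Duoxa2 (chr2:122298900-122302885, plus) lie head to head with 450 bases between their annotated starts, and Duoxa2 overlaps Duoxa1 on the opposite strand. RefSeq promoter windows (GRCm38.p6) were at hand for 7 of the 9 members, all but Retnlb and Nos2.

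Parts of 4 of these windows are shown because their genes are described below in pairs or beside Retnlb. Each run ends at the base before the RefSeq start site and is written 5′ to 3′ on the gene's strand. Capitals mark the letters of any of 10 motifs searched on both strands, here a STAT motif (TTCNNNGAA), a TATA motif (TATAAA), an NF-kappaB motif (GGGAANNNCC), an AP-1 motif (TGACTCA) and a nuclear receptor hexamer (AGGTCA, read as its reverse complement in Duoxa2).
Reg3b, chr6:78370735-78370884, plus: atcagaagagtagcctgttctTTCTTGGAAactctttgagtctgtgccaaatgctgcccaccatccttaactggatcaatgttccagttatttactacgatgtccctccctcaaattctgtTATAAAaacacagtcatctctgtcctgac
Reg3g, chr6:78468875-78469024, minus: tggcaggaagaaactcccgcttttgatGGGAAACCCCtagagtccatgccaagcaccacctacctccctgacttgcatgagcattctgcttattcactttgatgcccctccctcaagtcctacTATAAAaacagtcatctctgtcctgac
Ang4, chr14:51773591-51773790, minus: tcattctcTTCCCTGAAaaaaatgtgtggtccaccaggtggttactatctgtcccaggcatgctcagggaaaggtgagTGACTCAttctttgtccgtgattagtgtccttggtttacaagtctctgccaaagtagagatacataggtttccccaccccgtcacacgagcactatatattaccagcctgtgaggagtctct
Duoxa2, chr2:122298750-122298899, plus: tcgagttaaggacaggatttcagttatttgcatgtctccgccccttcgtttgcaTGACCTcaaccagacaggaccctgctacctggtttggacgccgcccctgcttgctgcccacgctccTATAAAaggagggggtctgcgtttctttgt

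The Reg3b and Reg3g windows were alike: over the 250 bases before the start, 68.9% of aligned positions were identical, against 48.5% for Reg3b and Reg4 and 46.6% for Reg3g and Ang4. Of 32851 promoter windows of that length in the table, 12.4% held the TATA motif, 7.02% the STAT motif, 4.46% the AP-1 motif, 14% the nuclear receptor hexamer and 4.94% the NF-kappaB motif. The other motifs searched were TTCNNNNGAA (STAT6, in 5.85% of all windows), TTTATG (the CDX motif, 10.8%), GATAAG (for GATA factors, 6.55%), TTGCNNAA (C/EBP, 9.56%) and 2 copies of the hexamer with 4 letters between them, the arrangement that LXR binds (0.0152%). Nearly all windows lack this last arrangement, and it was in none of the 7 members' windows. The last 24 bases of the Reg3b run lie in an exon that GENCODE starts earlier than RefSeq. A match is a description of the letters only.

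On the strand of the transcripts, near-identical copies could share reads for only 2 members to any extent. Of the 31-letter words of the main transcript, 13.8% in Ang4 also occurred in transcripts of other genes, led by Ang5, Ang2 and Ang6, and 11.6% in Duox2 also occurred in Duox1. The share was 0.664% in Reg3b and 0.675% in Reg3g, which share words with each other, and 0 in the other 5 members. The split of Ang4 and Duox2 reads from those relatives is therefore less certain. The search did not read the opposite strand, on which Duoxa1 overlaps Duoxa2, so it leaves that overlap out.

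In untreated colon the members fell into an abundant pair, an intermediate pair and a nearly silent group. On a scale corrected for transcript length (TPM, the share of each transcript among all transcripts of a sample), Lypd8 lay between 7491 and 12520 TPM and Reg4 between 283 and 611 TPM. Duoxa2 lay between 10.8 and 21.01 TPM and Duox2 between 5.50 and 11.1 TPM. Retnlb, Reg3b, Reg3g, Ang4 and Nos2 were each below 6 TPM in every untreated sample, and Reg3b had no counts in 4 of the 8. The highest single level of any member was Lypd8 at 15350 TPM, which is 1.54% of the transcripts of GW3965 day 70 replicate 2. Between the diets in untreated colon, edgeR's quasi-likelihood test called none of the 9 members, and 0.0293% of all genes higher and 0% lower. None passed an unadjusted edgeR p of 0.05. DESeq2 called none, although Retnlb had an unadjusted DESeq2 p of 0.034 (log2 fold change -1.86). The edgeR errors of the nearly silent members were wide: -1.81 ± 1.16 for Retnlb, -1.39 ± 1.95 for Reg3b, -1.25 ± 1.19 for Ang4, 0.17 ± 1.01 for Reg3g and 0.18 ± 0.70 for Nos2. An absent call therefore does not show that these levels were unchanged. For each of the 9 members the untreated samples of the 2 diets overlapped. Here and below, shares of all genes are of those called by edgeR at FDR below 0.05. Counts at an unadjusted p or by DESeq2 have no share of all genes at the same threshold beside them.

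**Figure D1:**
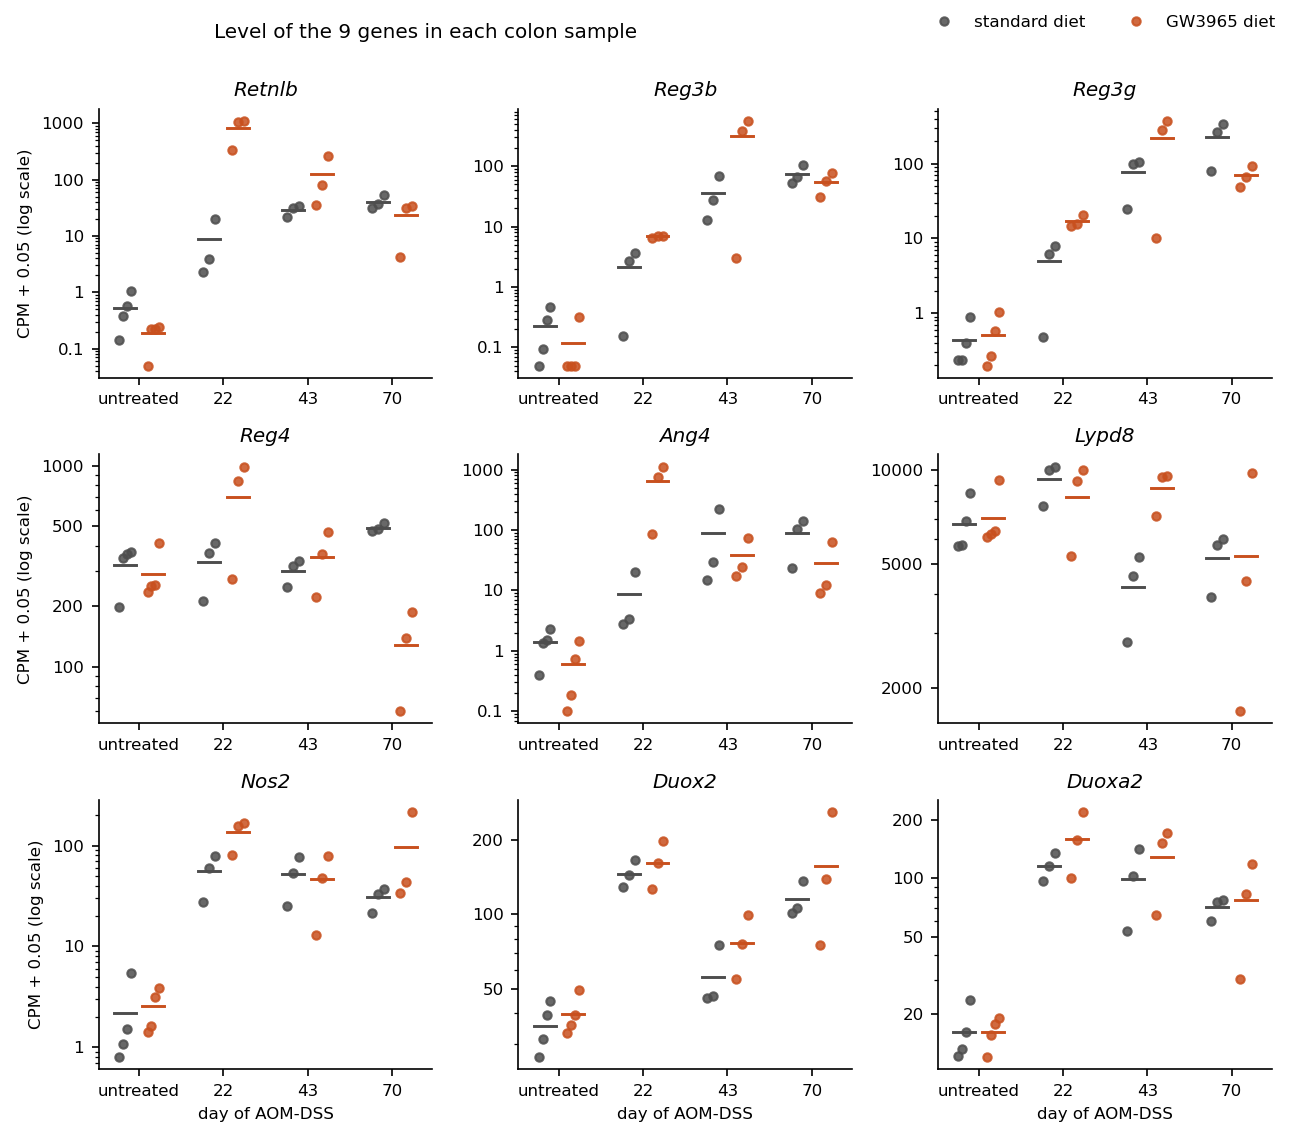
Each panel plots the CPM of 1 gene (log axis, with 0.05 added so that samples at 0 can be drawn) in every sample, by day of AOM-DSS, in grey for the standard diet and orange for the GW3965 diet; horizontal bars are group means. Retnlb and Ang4 peaked in the GW3965 day 22 samples, Reg3b and Reg3g reached their highest levels at days 43 and 70, and Lypd8 stayed between 1680 and 10280 CPM in all samples.

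Retnlb went from nearly absent in untreated colon to abundant in some treated samples. It was at 0.330, 0.0944, 0.511 and 0.991 CPM in untreated standard samples and at 0.197, 0.173, 0.177 and 0 CPM in untreated GW3965 samples. At day 22 the standard samples held 2.26, 3.82 and 20.0 CPM and the GW3965 samples 336, 1092 and 1033 CPM. The lowest GW3965 sample thus lay above the highest standard sample, and every day 22 sample lay above every untreated one. The log2 fold change between the diets at day 22 was 6.29 ± 0.91 (standard error), and those over untreated colon were 3.87 ± 0.85 on the standard diet and 11.97 ± 1.09 on GW3965, described here without a test.

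At later days the Retnlb levels of the 2 diets lay closer together. The day 43 values were 21.8, 34.1 and 31.4 CPM on the standard diet and 80.6, 259 and 34.6 CPM on GW3965, so that the groups lay next to each other without overlap, the lowest GW3965 sample just above the highest standard one. Its log2 fold change of 2.30 ± 0.77 between the diets was not called (edgeR FDR = 0.494). The day 70 values were 52.4, 36.4 and 30.8 CPM against 4.25, 30.6 and 34.3 CPM, an overlap with one low GW3965 sample. In the order of group means, GW3965 day 22 (820 ± 421 CPM, SD, n = 3) stood apart from GW3965 day 43 (125 ± 119 CPM, n = 3), each neighbouring pair from there down to standard day 22 (8.69 ± 9.82 CPM, n = 3) overlapped, and standard day 22 stood apart from both untreated groups.

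Against untreated colon, Retnlb rose at day 70 on the standard diet (log2 fold change 6.38 ± 0.87, edgeR FDR = 6.79e-05) and on GW3965 (7.61 ± 1.00, edgeR FDR = 7.21e-05). It also rose at day 43 on GW3965 (7.75 ± 1.33, edgeR FDR = 0.00679), a call lost without GW3965 day 43 replicate 3 (edgeR FDR = 0.0606). At day 43 on the standard diet the difference was 3.65 ± 1.48 (edgeR FDR = 0.494). Dropping the ribosomal term made it 5.91 ± 0.89 (edgeR FDR = 1.77e-05).

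Ang4 had the level most like that of Retnlb across the 26 samples. Untreated samples held 1.27, 1.46, 0.340 and 2.23 CPM on the standard diet and 0.688, 1.39, 0.132 and 0.0497 CPM on GW3965. At day 22 the standard samples held 3.28, 2.75 and 19.7 CPM and the GW3965 samples 86.9, 1119 and 762 CPM. As with Retnlb, the groups did not overlap, the third standard replicate was the highest of its group and the first GW3965 replicate the lowest of its own. The log2 fold change between the diets at day 22 was 5.93 ± 1.28.

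At day 43 Ang4 was at 225, 14.9 and 29.5 CPM on the standard diet and at 17.5, 74.0 and 23.9 CPM on GW3965, so the groups overlapped and the highest sample was the standard one with the RNA integrity number of 2.6. At day 70 it was at 23.8, 102 and 142 CPM against 8.96, 12.1 and 62.5 CPM, again an overlap (log2 fold change -1.34 ± 1.07, edgeR FDR = 0.517). Over untreated colon the Ang4 difference at day 22 on GW3965 was 9.54 ± 1.37, and Ang4 rose at day 70 on both diets (5.89 ± 1.16 on the standard diet, edgeR FDR = 0.000977, and 5.81 ± 1.21 on GW3965, edgeR FDR = 0.00225). On the standard diet at day 22 the difference of 2.36 ± 1.10 was not called (edgeR FDR = 0.222).

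Ang4 is also known as a product of Paneth cells, and markers of that type moved in some of the same samples. The 8 Paneth cell markers, which include 5 alpha-defensins, summed to between 12.4 and 43.4 CPM in untreated samples, where 3 alpha-defensins were at 0 throughout the standard group and 4 throughout the GW3965 group. They summed to 9124 CPM in standard day 43 replicate 1 and to 617, 4289 and 3855 CPM at day 70 on the standard diet. The 3 largest of these sums belonged to the 3 samples with most Ang4 outside GW3965 day 22. In the GW3965 day 22 samples they summed to 70.8, 109 and 167 CPM, overlapping the standard day 22 samples (63.2, 87.9 and 131 CPM), and 3 alpha-defensins were at 0 in all 3 samples. Lyz1 (lysozyme) made up most of these sums, at 42.3 to 86.9 CPM on GW3965 and 49.5 to 81.5 CPM on the standard diet. Of the 8 markers, Itln1, a lectin of Paneth and goblet cells and the gene next most like Ang4 after Retnlb, was at 13.3 to 61.0 CPM on GW3965 and at 2.90 to 8.63 CPM on the standard diet, with no overlap (difference not called, edgeR FDR = 0.256). Over untreated colon at day 22, Mmp7 and Itln1 were called higher on GW3965 and Mmp7 on the standard diet. All 8 markers were called higher at day 70 on the standard diet and 5 of 8 on GW3965. The part of Paneth cells in the levels of Ang4 was not tested.

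**Figure D2:**
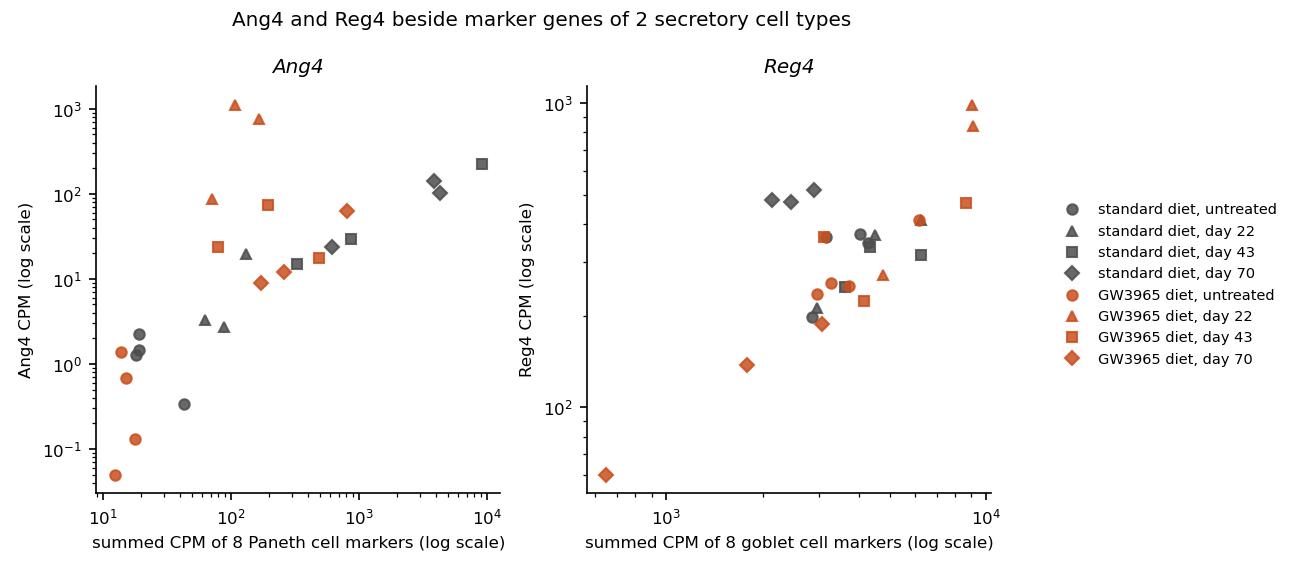
The left panel plots Ang4 CPM against the summed CPM of 8 Paneth cell markers and the right panel Reg4 CPM against that of 8 goblet cell markers, both axes logarithmic, 1 point a sample, coloured by diet and shaped by day. The GW3965 day 22 samples hold Ang4 at 86.9 to 1119 CPM with Paneth markers at 70.8 to 167 CPM, and the standard day 70 samples hold Reg4 at 474 to 519 CPM with goblet markers at 2145 to 2897 CPM.

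Reg3b and Reg3g, the most alike pair of members, reached their highest levels at days 43 and 70. Reg3b had between 0 and 0.425 CPM in untreated samples. It was at 0.108, 3.62 and 2.64 CPM at day 22 on the standard diet and at 7.06, 7.03 and 6.48 CPM on GW3965. The 3 GW3965 samples were close together and above the 3 standard ones, although all were low in absolute terms. Its log2 fold change between the diets was 1.66 ± 0.99 at day 22.

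The widest ratio between replicates of any member in treated colon came at day 43 on GW3965, where Reg3b was at 558, 386 and 2.94 CPM. Standard samples of that day held 27.4, 12.9 and 67.8 CPM, so 2 GW3965 samples lay above them and 1 below. Reg3g split in the same way, with 370, 284 and 9.94 CPM on GW3965 against 97.2, 24.7 and 106 CPM on the standard diet. The low sample of both genes, replicate 3, had an RNA integrity number of 9.3 and 10.0% ribosomal protein counts against 8 and 6.8 and 13.1% and 17.6% in the others, and its 8 neutrophil markers summed to 863 CPM against 3223 and 1608 CPM. The same sample had the most squamous markers (4126 CPM against 2362 and 182 CPM), skeletal muscle markers (351 CPM against 29.5 and 28.0 CPM) and smooth muscle markers (14690 CPM against 6941 and 8209 CPM) of its group. Whether these values play a part in the split was not tested. The log2 fold changes between the diets at day 43, 4.34 ± 1.11 for Reg3b (edgeR FDR = 0.439) and 2.74 ± 0.90 for Reg3g (edgeR FDR = 0.489), were not called.

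At day 70 the replicates were closer. Reg3b held 66.7, 106 and 52.2 CPM on the standard diet and 30.3, 56.3 and 76.2 CPM on GW3965, and Reg3g held 79.9, 264 and 343 CPM against 48.6, 65.5 and 94.1 CPM, with overlap in both. Over untreated colon both genes rose on both diets, Reg3b by 8.67 ± 1.20 (standard, edgeR FDR = 8.08e-05) and 10.10 ± 1.35 (GW3965, edgeR FDR = 8.19e-05) and Reg3g by 8.95 ± 0.97 (standard, edgeR FDR = 1.65e-05) and 7.80 ± 0.95 (GW3965, edgeR FDR = 3.45e-05) on the log2 scale. Since untreated Reg3b counts were between 0 and 9 per sample, the size of its fold change depends on the small count that the fit adds. At day 22 the differences from untreated colon were 5.82 ± 1.38 for Reg3b and 4.29 ± 0.90 for Reg3g on GW3965. On the standard diet they were 2.77 ± 1.32 for Reg3b (edgeR FDR = 0.235) and 2.86 ± 0.93 for Reg3g (edgeR FDR = 0.0642), and DESeq2 called the latter (FDR = 0.00649). The day 43 difference on GW3965 was called for Reg3b (8.73 ± 2.08, edgeR FDR = 0.0472) and not for Reg3g (5.32 ± 1.51, edgeR FDR = 0.0959), whereas DESeq2 called both (FDR = 0.00216 and 0.0025). That Reg3b call was lost in 6 of the 7 fits that left out 1 sample, with edgeR FDR = 0.444 without replicate 1, where the fold change was 4.07.

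Reg4 differed from its relatives in being well expressed before injury. Untreated levels were 370, 199, 364 and 347 CPM on the standard diet and 414, 251, 255 and 235 CPM on GW3965. At day 22 it was at 414, 213 and 369 CPM on the standard diet and at 272, 989 and 838 CPM on GW3965, an overlap in which 2 GW3965 samples were the highest of all 26. At day 43 it was at 335, 248 and 315 CPM against 223, 468 and 362 CPM, also overlapping.

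At day 70 Reg4 was the one member called between the diets. The standard samples held 474, 482 and 519 CPM and the GW3965 samples 59.9, 188 and 138 CPM, so that every GW3965 sample lay below every standard sample, with a log2 fold change of -1.87 ± 0.44 (edgeR FDR = 0.0378). This made 1 of 9 members lower and none higher, where 0.082% of all genes tested were lower and 1.75% higher. The call was lost in 4 of the 6 fits without 1 sample, with edgeR FDR = 0.184 without standard day 70 replicate 1, 0.0699 without standard replicate 2, 0.129 without standard replicate 3 and 0.13 without GW3965 replicate 1, while the fold change stayed between -2.25 and -1.53. Against untreated colon the day 70 levels were 0.61 ± 0.39 on the standard diet (edgeR FDR = 0.237) and -1.10 ± 0.41 on GW3965 (edgeR FDR = 0.0623) on the log2 scale, neither of which edgeR called. DESeq2 called the second (-1.13, FDR = 0.0233). Every standard day 70 sample lay above every untreated standard sample, and every GW3965 day 70 sample below every untreated GW3965 sample.

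Reg4 is known from goblet and other secretory cells, and goblet cell markers were lower in 2 of the same samples. The 8 goblet cell markers summed to 2459, 2145 and 2897 CPM in the standard day 70 samples and to 646, 3069 and 1789 CPM in the GW3965 day 70 samples, and none was at 0 throughout either group. Between the diets none of the 8 was called at day 70, and against untreated colon 3 were called lower on GW3965 (Tff3, Atoh1 and Clca1), and 2 higher and 2 lower on the standard diet. The lowest sum belonged to GW3965 replicate 1, the sample with the squamous and skeletal muscle markers and the least Reg4. GW3965 replicate 2, with a goblet marker sum above all 3 standard samples and squamous markers at 6.78 CPM, held 188 CPM of Reg4, still below all 3. At day 22, goblet markers summed to 4764, 9041 and 9075 CPM on GW3965 against 6257, 2953 and 4507 CPM on the standard diet, and the 2 GW3965 samples with the larger sums were those with most Reg4, Ang4 and Retnlb. The part of goblet cells in these levels was not tested.

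Lypd8 was the most abundant member in every sample and was called in no comparison. Group means ran from 9353 ± 1428 CPM at standard day 22 (SD, n = 3) to 4218 ± 1274 CPM at standard day 43 (n = 3), and each pair of neighbours in the order of the means overlapped. Its largest difference between the diets was at day 43, when the standard samples held 2807, 4566 and 5282 CPM and the GW3965 samples 9540, 9591 and 7140 CPM. These groups did not overlap, and the standard day 43 samples also lay below all untreated standard samples (mean 4218 against 6703 CPM), yet the log2 fold change of 1.07 ± 0.45 between the diets was not called (edgeR FDR = 0.537). The lowest Lypd8 level, 1680 CPM, was that of GW3965 day 70 replicate 1, whose colon epithelium markers were also the lowest of all samples at 2825 CPM, and the highest at day 70, 9814 CPM, was that of GW3965 day 70 replicate 2.

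Nos2 was higher at days 22, 43 and 70 than in untreated colon on both diets, although the day 43 difference was not called with the ribosomal term. Untreated samples held between 0.754 and 5.40 CPM. At day 22 the standard samples held 27.7, 60.1 and 79.6 CPM and the GW3965 samples 157, 81.4 and 167 CPM, so that the groups touched without overlapping (log2 fold change 1.18 ± 0.73 between the diets). At day 43 they held 25.3, 53.7 and 76.4 CPM and 78.5, 47.8 and 12.9 CPM, all above every untreated sample. The day 43 differences from untreated colon were 3.345 ± 1.56 (edgeR FDR = 0.599) and 3.30 ± 1.19 (edgeR FDR = 0.197). Without the ribosomal term they were 4.59 ± 0.75 (edgeR FDR = 3.98e-05) and 4.21 ± 0.74 (edgeR FDR = 0.000153). At day 70 the standard and GW3965 samples held 21.6, 33 and 37.2 CPM and 34.0, 214 and 43.2 CPM, an overlap with a single high GW3965 sample (1.87 ± 0.77, edgeR FDR = 0.2). Over untreated colon Nos2 rose at day 22 by 4.49 ± 0.78 on the standard diet (edgeR FDR = 0.00212), beside a difference of 5.49 ± 0.80 on GW3965, and at day 70 by 3.78 ± 0.74 (edgeR FDR = 0.00094) and 5.47 ± 0.80 (edgeR FDR = 0.000144), on the log2 scale. Macrophages also make nitric oxide through Nos2. The 8 macrophage markers summed to between 185 and 322 CPM in untreated samples and 447 to 742 CPM at day 22. They summed to 409.5 to 1562 CPM at day 43 and 215 to 512 CPM at day 70, and their part was not tested.

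Duox2 and its maturation factor Duoxa2 were both higher at days 22 and 70 than in untreated colon. Duox2 was at 26.7 to 49.8 CPM in untreated samples, at 165, 129 and 144 CPM on the standard diet and 161, 127 and 197 CPM on GW3965 at day 22, and at 137, 107 and 102 CPM and 75.3, 258 and 139 CPM at day 70. Duoxa2 was at 11.98 to 23.5 CPM in all untreated samples, at 97.1, 115 and 135 CPM and 158, 100 and 218 CPM at day 22, and at 60.2, 74.9 and 77.2 CPM and 30.3, 118 and 83.3 CPM at day 70. Every sample of days 22 and 70 lay above every untreated sample for both genes, and the 2 diets overlapped on both days. Over untreated colon the rise at day 22 was 1.96 ± 0.31 for Duox2 (edgeR FDR = 0.00125) and 2.64 ± 0.38 for Duoxa2 (edgeR FDR = 0.000761) on the standard diet, and the differences on GW3965 were 1.90 ± 0.32 and 2.97 ± 0.40. At day 70 Duox2 rose by 1.70 ± 0.30 (edgeR FDR = 0.000444) and 2.09 ± 0.31 (edgeR FDR = 0.0002), and Duoxa2 by 2.11 ± 0.37 (edgeR FDR = 0.000396) and 2.48 ± 0.38 (edgeR FDR = 0.000239), on the standard and GW3965 diets.

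At day 43 the partners differed: Duox2 held 47.1, 46.1 and 75.0 CPM on the standard diet and 99.2, 76.1 and 55.0 CPM on GW3965, all below every day 22 sample, whereas Duoxa2 held 53.2, 103 and 142 CPM and 171, 151 and 64.4 CPM, with 4 of 6 samples inside its day 22 range of 97.1 to 218 CPM and 2 below it. Neither gene was called over untreated colon at day 43 with the ribosomal term in the fit, on either diet.

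**Figure D3:**
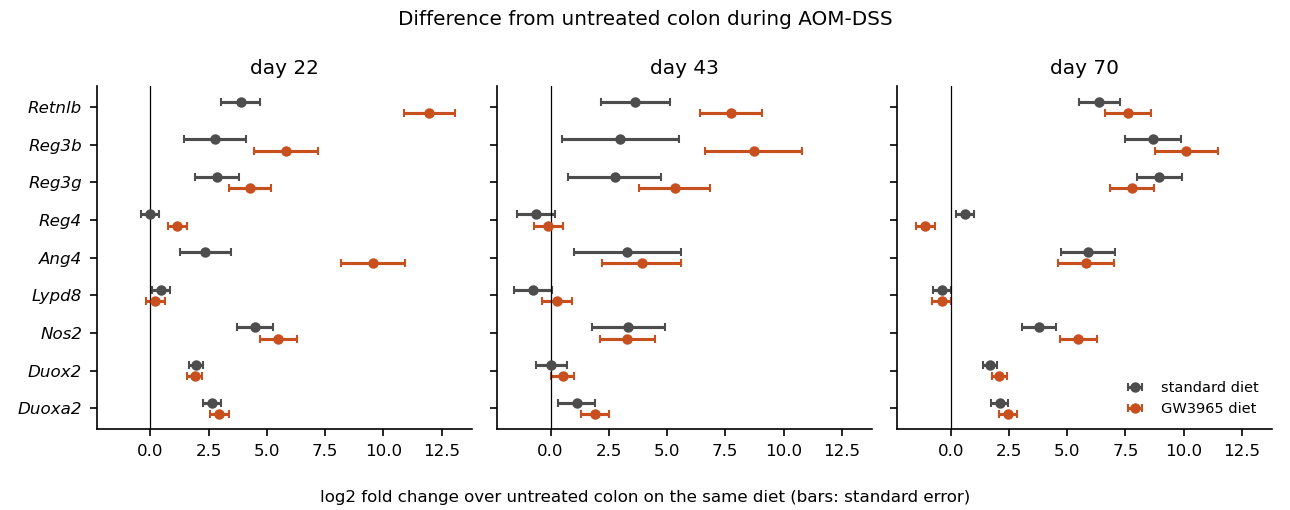
Points give the log2 fold change of each gene over untreated colon on the same diet, with standard errors as bars, at days 22, 43 and 70, in grey for the standard diet and orange for GW3965. The day 43 bars are the widest, and Reg4 and Lypd8 lie between -1.10 and 1.16 throughout.

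Counted over the members, several were called higher at days 22 and 70 of AOM-DSS than in untreated colon, and edgeR called none lower. At day 22, 3 of the 8 members tested were called higher on the standard diet (6.19% of all genes were higher and 1.54% lower), and DESeq2 called 4. The standard day 22 samples are part of the difference that selected the members, so that count is a description only. The members are not counted on GW3965 at day 22, whose samples also took part in their selection. At day 70, 7 of 9 were higher on the standard diet (18.1% of all genes higher, 15.1% lower) and 7 of 9 on GW3965 (14.4% higher, 7.43% lower), on both diets all but Reg4 and Lypd8. DESeq2 called the same number on the standard diet and 8 on GW3965, where it added Reg4, lower. The median log2 fold change over the 9 members at day 70 was 3.78 on the standard diet and 5.47 on GW3965. Over all genes tested it was 0.04 and 0.10. The members were chosen on differences already seen in these samples, so these counts and medians are description only. Both sets of counts rest on separate untreated samples of each diet, each set from a cage that held no treated mice.

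The day 43 counts, description only like those of day 70, depended on the ribosomal term. With it, edgeR called 0 of 9 members on the standard diet, where 2 passed an unadjusted p of 0.05, DESeq2 called 0, and 0% of all genes were called higher or lower. On GW3965 it called 2 of 9 higher, Retnlb and Reg3b, where 0.897% of all genes were higher and 0.041% lower, and DESeq2 called 3, with Reg3g. Without the term, 6 of 9 were called higher on the standard diet (30.8% of all genes) and 7 of 9 on GW3965 (26% of all genes). These were Retnlb, Reg3b, Reg3g, Ang4, Nos2 and Duoxa2 on both diets, and Duox2 on GW3965.

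Between the diets, edgeR called none of the 9 members at day 43, where it called 0.0293% of all genes higher and 0% lower, and DESeq2 called none. At an unadjusted edgeR p of 0.05, 4 members passed, all higher on GW3965. The share of all genes that passed at that threshold is not given, so nothing is read from the 4. At day 22, where the members were selected, every GW3965 sample lay above every standard sample for 5 of 9 members (Retnlb, Reg3b, Reg3g, Ang4 and Nos2), and 12.1% of all genes tested had this order. Nothing is read from that count.

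**Figure D4:**
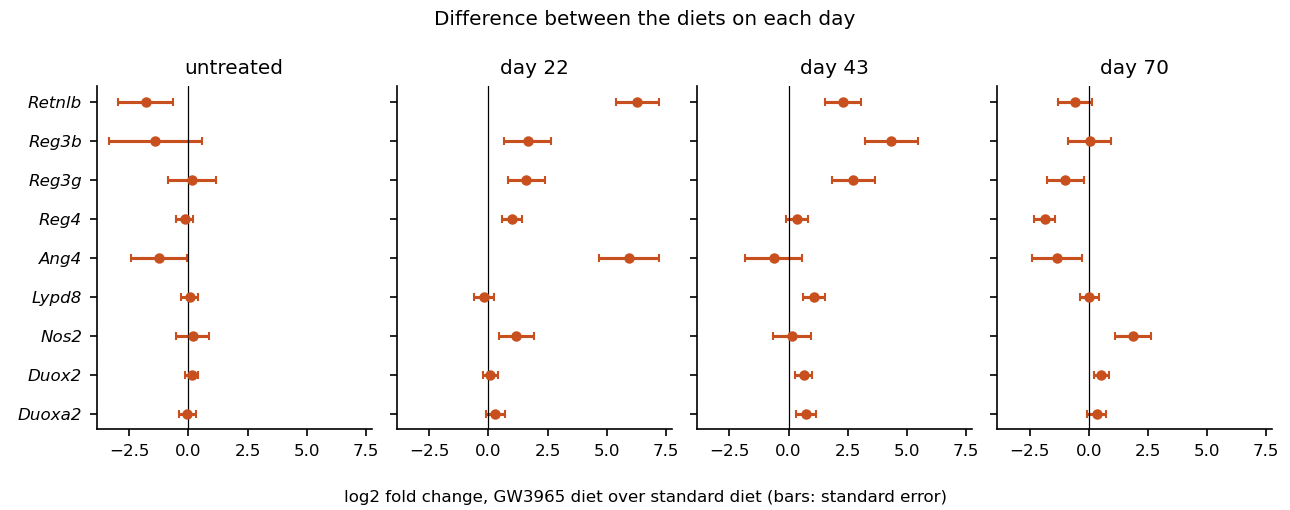
Points give the log2 fold change of each gene on GW3965 over the standard diet, with standard errors as bars, in untreated colon and at days 22, 43 and 70 of AOM-DSS. Retnlb and Ang4 lie at 6.29 and 5.93 at day 22 and below 0 at day 70, and Reg4 at day 70 is at -1.87.

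Whether the diet effect itself changed between days was tested for the days that did not select the members. None of the 9 members was called for day 43 against untreated colon, where 2 passed an unadjusted p of 0.05 and 0% of all genes were called, nor for day 70 against untreated colon, where 1 did and 0% of all genes were called. For day 70 against day 43 edgeR again called none, 4 passed an unadjusted p of 0.05, all with a lower diet effect at day 70, DESeq2 called Reg4, and 0.0176% of all genes were called. DESeq2 called no member in the first 2 of these contrasts. The shares are again of genes called, not of genes that passed the unadjusted p.

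The other listed genes of the same pathways place the members among effectors, inducers and relays. Between the diets edgeR called 0 of 77 in untreated colon, at day 22 (0.0879% of all genes higher and 0.0469% lower) and at day 43, where 4, 8 and 10 passed an unadjusted p of 0.05 and DESeq2 called 0, 2 and 0. At day 70, 3 of 77 were higher on GW3965 and none lower (1.75% and 0.082% of all genes). These were Cybb, the catalytic subunit of the phagocyte oxidase (1.97 ± 0.40, edgeR FDR = 0.0238), Il22ra2, the soluble receptor that blocks interleukin-22 (5.33 ± 1.13, edgeR FDR = 0.0256), and Nfkbiz, a nuclear relay of interleukin-17 and Toll-like receptor signals (0.91 ± 0.23, edgeR FDR = 0.0493). Il22ra2 was between 0 and 0.131 CPM at day 70 on the standard diet and between 0.461 and 7.99 CPM on GW3965. In the same comparison all 8 B cell markers were called higher on GW3965 (sums of 65.3, 434 and 23.98 CPM against 5.47, 12.5 and 6.64 CPM). They summed to 43.7 to 241 CPM in untreated standard samples and 71.7 to 170 CPM in untreated GW3965 samples. Over untreated colon at day 70, all 8 were called lower on the standard diet (15.1% of all genes lower) and none on GW3965. Macrophage markers, none of them called between the diets, summed to 370 to 512 CPM on GW3965 against 215 to 351 CPM. The part of B cells and macrophages in the differences of Cybb, Il22ra2 and Nfkbiz was not tested.

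Over untreated colon more of the other genes were called higher than lower. Because the list was chosen with earlier results of these data known, its counts beside the shares of all genes are description only. The same holds for the tests of its genes below. At day 22, 21 of 77 were higher and 0 lower on the standard diet (6.19% and 1.54% of all genes), and 36 and 0 on GW3965 (9.13% and 3.46% of all genes). At day 70, 30 were higher and 7 lower on the standard diet (18.1% and 15.1% of all genes), and 37 and 2 on GW3965 (14.4% and 7.43%). The same shares of all genes stand behind the counts of each list. At day 43, edgeR called 0 on the standard diet, where 29 passed an unadjusted p of 0.05 and DESeq2 called 9, and 8 higher and 0 lower on GW3965. The median log2 fold change over the 77 was 0.90 and 1.35 at day 22 and 0.54 and 1.19 at day 70, on the standard and GW3965 diets.

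Among the secreted antimicrobial proteins (24 tested), 7 were higher at day 22 on the standard diet and 13 on GW3965. S100a8, a subunit of the zinc-binding protein calprotectin, rose by 6.96 ± 1.11 and 7.98 ± 1.19 (edgeR FDR = 0.0014 and 0.000288) on the log2 scale, and Pla2g2a, a secreted phospholipase that attacks bacterial membranes, by 2.30 ± 0.70 and 5.27 ± 0.78 (edgeR FDR = 0.0479 and 0.000288). At day 70, 12 were higher and 4 lower on the standard diet, and 13 and 1 on GW3965, with Ltf, the iron-binding lactoferrin, up by 11.66 ± 1.44 and 12.42 ± 1.45 (edgeR FDR = 3.81e-05 and 2.6e-05). Of the other resistin-like genes, Retnlg, known from neutrophils, rose by 5.68 ± 1.22 and 5.46 ± 1.39 at day 22 (edgeR FDR = 0.00802 and 0.0136). Neutrophil markers summed to between 97.6 and 246 CPM in untreated samples, 189 to 851 CPM at day 22 and 863 to 12950 CPM at day 43, with none at 0 throughout a group. Retnlg and S100a8 are themselves in that marker list, and its part in these levels was not tested. Of 5 beta-defensins tested, Defb1, Defb4 and Defb14 were higher at day 70 on both diets. Squamous markers summed to 6.02 to 9.63 CPM in untreated colon, where 1 of 8 was at 0 throughout each group, and at day 70 to 3384 to 4980 CPM on the standard diet and to 25030, 6.78 and 13780 CPM on GW3965. The part of squamous epithelium in these levels was not tested.

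Among the inducers, 4 of 11 cytokines tested were higher at day 22 on the standard diet (Tnf, Il1b, Il17a and Il6) and 6 on GW3965 (these 4, Il22 and Ifng). Il17a, which drives epithelial defence genes, rose by 6.84 ± 1.21 and 3.81 ± 0.99 on the log2 scale (edgeR FDR = 0.00231 and 0.0148) from 0 to 0.265 CPM in untreated samples to between 0.43 and 7.25 CPM at day 22. Il22, a known inducer of Reg3b and Reg3g, was never above 2.99 CPM. GW3965 samples held 0 in untreated colon and between 0.588 and 2.99 CPM at day 22 (7.62 ± 1.91, edgeR FDR = 0.0148). Since the untreated GW3965 samples held 0, the size of that fold change depends on the small count that the fit adds. Il13 and Il25, type 2 cytokines, did not pass the filter. Of 21 receptors and relays, 5 were higher at day 22 on the standard diet and 10 on GW3965, none lower, with Nfkbiz up by 1.78 ± 0.22 and 1.78 ± 0.23 (edgeR FDR = 0.00031 and 8.26e-05) and Socs3, a feedback inhibitor of STAT3 signals, up by 2.69 ± 0.47 and 4.24 ± 0.51 (edgeR FDR = 0.00212 and 6.53e-05).

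Of the other oxidase genes (11 tested), 4 were higher at day 22 on the standard diet and 6 on GW3965. Duoxa1, the maturation factor of Duox1 and neighbour of Duoxa2, rose by 2.97 ± 0.69 at day 22 on GW3965 (edgeR FDR = 0.00735) and at day 70 on both diets (3.36 ± 0.62 and 4.77 ± 0.67, edgeR FDR = 0.00061 and 0.00011). Since Duoxa1 and Duoxa2 overlap on opposite strands and the strand setting of the counting is not stated, reads of the shared stretch may be split either way. Duox1 rose at day 70 by 4.57 ± 0.97 and 6.20 ± 1.06 (edgeR FDR = 0.00166 and 0.00052).

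The genes most like each member were taken from the 3 with the highest Pearson correlation of log2 CPM over the 26 samples, a description in which the points share groups, cages and tissue makeup. For Retnlb they were Ang4 (r = 0.93), Tnfrsf8 (r = 0.92) and Ly6a (r = 0.92), and for Ang4 they were Retnlb, Itln1 (r = 0.87) and Syne4 (r = 0.86). Reg3b and Reg3g were each other's nearest gene (r = 0.96), followed by Ufd1 (r = 0.91) and Lrg1 (r = 0.90) for Reg3b and by Psat1 (r = 0.94) and Mmp7 (r = 0.93) for Reg3g. Reg4 was nearest to 9030619P08Rik (r = 0.84) and Agr2 (r = 0.83), and Lypd8 to Ms4a8a (r = 0.90), P2rx4 (r = 0.90) and Cideb (r = 0.90). Nos2 was nearest to Olfr56 (r = 0.96), Tap1 (r = 0.96) and Plet1 (r = 0.95), Duoxa2 to Serpina3f (r = 0.95), Plet1 (r = 0.95) and Ly6a (r = 0.94), and Duox2 to Ddah1 (r = 0.88), Clca4b (r = 0.88) and Cd177 (r = 0.87).

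Within groups, after each group's mean was taken off, the correlation was 0.81 for Duox2 and Duoxa2, 0.75 for Reg3b and Reg3g, 0.72 for Nos2 and Duoxa2, and 0.47 for Retnlb and Ang4. Over all samples, the correlation of Lypd8 with any other member was at most 0.42, with Reg4. Its within-group values were 0.72 with Duox2 and 0.69 with Duoxa2. Reg4 had its highest with Retnlb, 0.61, and Ang4 was near 0 with Nos2 (0.04) and Duoxa2 (-0.02).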

How the data were processed

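Bulk RNA-seq of 26 mouse colon samples in 8 groups of diet and day was used. The members and the gene lists were chosen with earlier results of these data known. The authors quantified reads with kallisto on GRCm38 cDNA and deposited estimated counts and TPM per transcript; the kallisto version, the Ensembl release and the strand setting are not given in the sources used here. Of 119414 transcripts, 116728 were matched to GENCODE M21 genes; between 0.615% and 0.999% of counts per sample were not. Deposited estimated counts and TPM values were summed by gene, and counts were rounded. No samples held identical values.

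Genes were kept by filterByExpr in edgeR 4.0.16 (R 4.3.3) and scaled by TMM; CPM values use those factors. The main test was edgeR's quasi-likelihood F-test over all 8 groups, with each library's share of ribosomal protein reads (88 genes, in percent) as an additive term and Benjamini-Hochberg adjustment over 17063 genes (FDR below 0.05). Alternatives were RLE factors, no filter, DESeq2 1.42.0, no ribosomal term, RNA integrity number as the term, all interactions, the 2 groups alone, matched untreated samples, replicate blocks and leaving out each sample. On simulated data, 136 of 200 genes changed 4-fold in the GW3965 day 70 group were called, with 3 others, over 17063 genes. Named genes were all members, up to 3 called genes of each list per comparison by smallest p, and the 3 genes most correlated with each member, of which 1 is not reported here. Promoter windows came from RefSeq. Total counts ran from 18195345 to 41522204 per sample, and errors are those between samples.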

Additional observations from a re-analysis of the deposited data

Results flagged for a closer look

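A sample far from the other 3 of its untreated group was looked for in 18 sets of 4 CPM values (9 members in 2 diets) by Dixon's test at the 95% level, which flags about 1 in 20 sets by chance, and 6 were found. Retnlb was at 0 CPM in the second GW3965 sample after 43 days, the library with the conflicting diet label, against 0.173 to 0.197 CPM in the other 3, a gap of at most 4 counts. Reg3b was at 0.265 CPM (6 counts) in the first GW3965 sample after 43 days and at 0 in the others. Reg4 was low at 199 CPM in the second standard sample after 22 days, and high at 414 CPM in the first GW3965 sample after 22 days, which was also high in Lypd8, at 9311 CPM. Nos2 was at 5.40 CPM in the second standard sample after 43 days against 0.754 to 1.46 CPM in the others.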

How the results depend on the processing

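The 73 fold changes of members that were called or at least 1 on the log2 scale were recomputed, and none of them changed direction under RLE factors, no filter, DESeq2, no ribosomal term, the RNA integrity number, 2 groups alone, matched untreated samples or the blocks. With all interactions (a likelihood ratio test), 10 that were not called changed sign. Between the diets these were Reg3b in untreated colon (12.24), Retnlb at day 43 (-0.70), and Ang4 (2.21) and Nos2 (-3.05) at day 70. For day 43 minus untreated it was Reg3b (-7.19), for day 70 minus untreated Reg3b (-10.74), Reg3g (6.77) and Nos2 (-6.59), and for day 70 minus day 43 Retnlb (3.50) and Nos2 (-2.71). The cause of these and the following changes was not tested.

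Between the diets, the other defence genes called at day 22 were 2 by DESeq2 and 2 with the 2 groups alone. At day 70 the members called were 0 with all interactions, with 2 groups alone and with the replicate block, and the other genes called were 7 with the RNA integrity number, 9 by DESeq2 and 0 with 2 groups alone or the replicate block. For day 70 minus day 43, DESeq2 called 1 member. Over untreated colon at day 43 on the standard diet, members called were 6 without the ribosomal term, 5 with the RNA integrity number and 6 with 2 groups alone, and other genes 52, 44 and 50, with 9 by DESeq2. On GW3965 at day 43 members called were 7 under each of those 3, 1 with RLE factors, 1 with a replicate block of 3 levels and 0 with matched untreated samples, and other genes 51, 50 and 50, with 18 by DESeq2 and 0 with matched samples. At day 22 on GW3965, matched untreated samples gave 16 other genes.

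Without 1 sample, the members called ranged from 0 to 1 between the diets at day 70 and for day 70 minus day 43, and were 1 on GW3965 at day 43. Other genes called ranged from 0 to 9 between the diets at day 70, from 12 to 22 at day 22 on the standard diet and from 3 to 6 at day 43 on GW3965. Untreated samples matched for days of diet ended the calls of Retnlb (edgeR FDR = 0.0647) and Reg3b (edgeR FDR = 0.14) at day 43 on GW3965. Replicate numbers did not pair the samples: deviations of the 13 same-numbered pairs correlated between -0.370 and 0.201, and 2 pairs were above 0.1. At this depth the members with few untreated counts (Retnlb, Reg3b, Reg3g) have imprecise fold changes.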
